A study of Mus musculus with 75 samples.

Results

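The 10 genes described here encode proteins that build the actin core of the stereocilia and the actin plate that holds them in an auditory hair cell: Espn, Espnl, Fscn2, Pls1, Pls3, Eps8, Eps8l2, Triobp, Grxcr1 and Lmo7. They were chosen by name, as rows of the deposited count table, and all 10 were found among the 55291 genes that the table lists. Each of the 75 samples was the RNA of 1 hand-picked cell of the mouse cochlea. The 17 WT_P30 OHCs were wild-type outer hair cells (OHCs) taken at postnatal day 30 (P30) from Slc26a5CreER/+; Ai9/+ mice, a knock-in of Cre at the Slc26a5 (Prestin) locus with a Cre-dependent red reporter, given tamoxifen at P20 and P21. The 16 WT_P60 SCs were wild-type supporting cells (SCs), mainly pillar cells and Deiters' cells, taken at P60 from Fgfr3-iCreER+; Ai9/+ mice given tamoxifen at P30 and P31. The remaining 42 cells were taken at P60 from mice that carried Fgfr3-iCreER+, the conditional transgene CAG-LSL-Atoh1+, its counterpart Rosa26-CAG-LSL-Ikzf2/+, and Slc26a5-DTR/+. In those mice Cre, driven in supporting cells by Fgfr3, switched on tagged transgenes of the transcription factors Atoh1 and Ikzf2 after tamoxifen at P30 and P31, and diphtheria toxin (20 ng/g at P36) damaged the OHCs, which carried the toxin receptor at Slc26a5. The study sorted these 42 cells into 11 OHC-like cells, 16 nascent HCs (hair cells, HCs) and 15 SCs failing to become HCs by their own Myo7a and Prestin expression, so those groups were not set independently of the transcriptome. No label names the animal that a cell came from. Cells of 1 mouse or culture are not independent, so each group was treated as 1 sample and no p-value is given. Means are given ± SD over all cells of a group, with n the number of cells, as a description of the spread between cells.

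Stereocilia are rows of membrane protrusions on top of a hair cell, each filled with parallel actin filaments, and they carry the channels that turn sound into current. Crosslinkers such as espin, fascin-2 and the plastins tie the filaments into a stiff bundle, proteins of the Eps8 family act at the filament tips, and Triobp packs the rootlet that anchors each stereocilium. The rootlets end in the cuticular plate, a dense actin mesh under the apical membrane. Supporting cells such as pillar and Deiters' cells are rich in actin and microtubules but have no such bundle.

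Levels are given in CPM, counts scaled to a common library total, and adjusted between cells by the trimmed mean of M-values (TMM), and a gene was called detected in a cell at 1 CPM or more of the unscaled total. The cells held 4264780 to 22934062 counts, with 3348 to 9654 genes detected. WT_P30 OHCs had fewer genes detected than the induced hair cells, with medians of 4777 in WT_P30 OHCs, 8488 in OHC-like cells and 8066.5 in nascent HCs. Most markers went with the labels of the wild-type cells. Slc26a5, the OHC motor protein prestin, was detected in 17 of 17 WT_P30 OHCs and in 0 of 16 WT_P60 SCs, as were Ocm and Myo7a. Ikzf2, also an OHC marker, was detected in 17 of 17 WT_P30 OHCs (mean 169 CPM) and in 11 of 16 WT_P60 SCs (mean 34.9 CPM). The summed level of 6 SC markers (Sox2, Sox10, Bace2, Ceacam16, Fgfr3 and Gjb2) ran from 2094 to 9058 CPM in WT_P60 SCs. In WT_P30 OHCs the sum had a median of 0 CPM, with Sox2 and Sox10 at 0. An SC marker was detected in 5 of 17 WT_P30 OHCs, however, with a highest sum of 496 CPM. The highest WT_P30 OHC was at 354 CPM for Ceacam16, 161 for Fgfr3, 129 for Bace2 and 48.9 for Gjb2. Of 3 inner hair cell (IHC) markers, Slc17a8 was detected in 2 and Otof in 14 of the 17 WT_P30 OHCs. The wild-type groups differed from each other and WT_P30 OHCs differed from the induced cells in age and genotype, and each wild-type group formed a library series of its own, so in these comparisons cell type, age, genotype and series cannot be told apart. WT_P60 SCs shared age and tamoxifen days with the induced cells, and there transgenes, toxin and library series cannot be told apart. Summed markers of blood, macrophages, neurons, endothelium and fibroblasts had group medians of 0 to 0.128 CPM, apart from endothelium in WT_P60 SCs, at 19.9 CPM. Single cells were far higher, up to 2295 CPM for blood in OHC-like cells, 861 for neurons in nascent HCs and 296 for endothelium in WT_P60 SCs. Neuron markers were detected in 7 of 17 WT_P30 OHCs and 6 of 16 nascent HCs. Endothelial markers were detected in 9 of 16 WT_P60 SCs, and fibroblast markers in 5 of 15 SCs failing to become HCs. No pair of cells held identical counts.

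In WT_P30 OHCs against WT_P60 SCs, 7 of the 10 genes were higher by more than 4-fold (a log2 fold over 2, computed on group means with 1 CPM added, among genes with a mean of at least 10 CPM in at least 1 of the groups): Espn, Espnl, Fscn2, Pls1, Triobp, Grxcr1 and Lmo7. All 10 genes passed the level filter, as did 10023 genes in all, of which 15.3% were higher by that rule and 36.0% differed in either direction. Pls3 was lower, as were 20.7% of all genes tested, and Eps8 and Eps8l2 were within the threshold. The median log2 fold of the 10 genes was 3.31, whereas that of all genes tested was -0.11. Every WT_P30 OHC lay above every WT_P60 SC for 3 of the genes (Espn, Pls1 and Lmo7), a separation that 1.24% of genes tested showed, and for 0 of the genes did every OHC lie below, as for 2.17% of genes tested. Espnl was past the threshold through WT_P30 OHC cell 13 alone, without which 7 in place of 8 genes passed, and it also did not pass on the median cell. Cell 13 had the highest Fgfr3 (161 CPM) and the lowest Ocm (9425 CPM) and Myo7a (205 CPM) of its group.

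In the cells that received Atoh1 and Ikzf2, the 10 genes did not move together. Espn, Pls1 and Triobp stood at or near the WT_P30 OHC level in OHC-like cells and nascent HCs, while Fscn2, Grxcr1 and Lmo7 were far below it and Pls3 was low. The first 3 genes were all detected in 10 of 11 OHC-like cells and in 16 of 16 nascent HCs. Fscn2, Grxcr1 and Lmo7 were all detected in 14 of 17 WT_P30 OHCs, in 0 of 11 OHC-like cells, in 1 of 16 nascent HCs and in 0 of 15 SCs failing to become HCs.

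**Figure D1:**
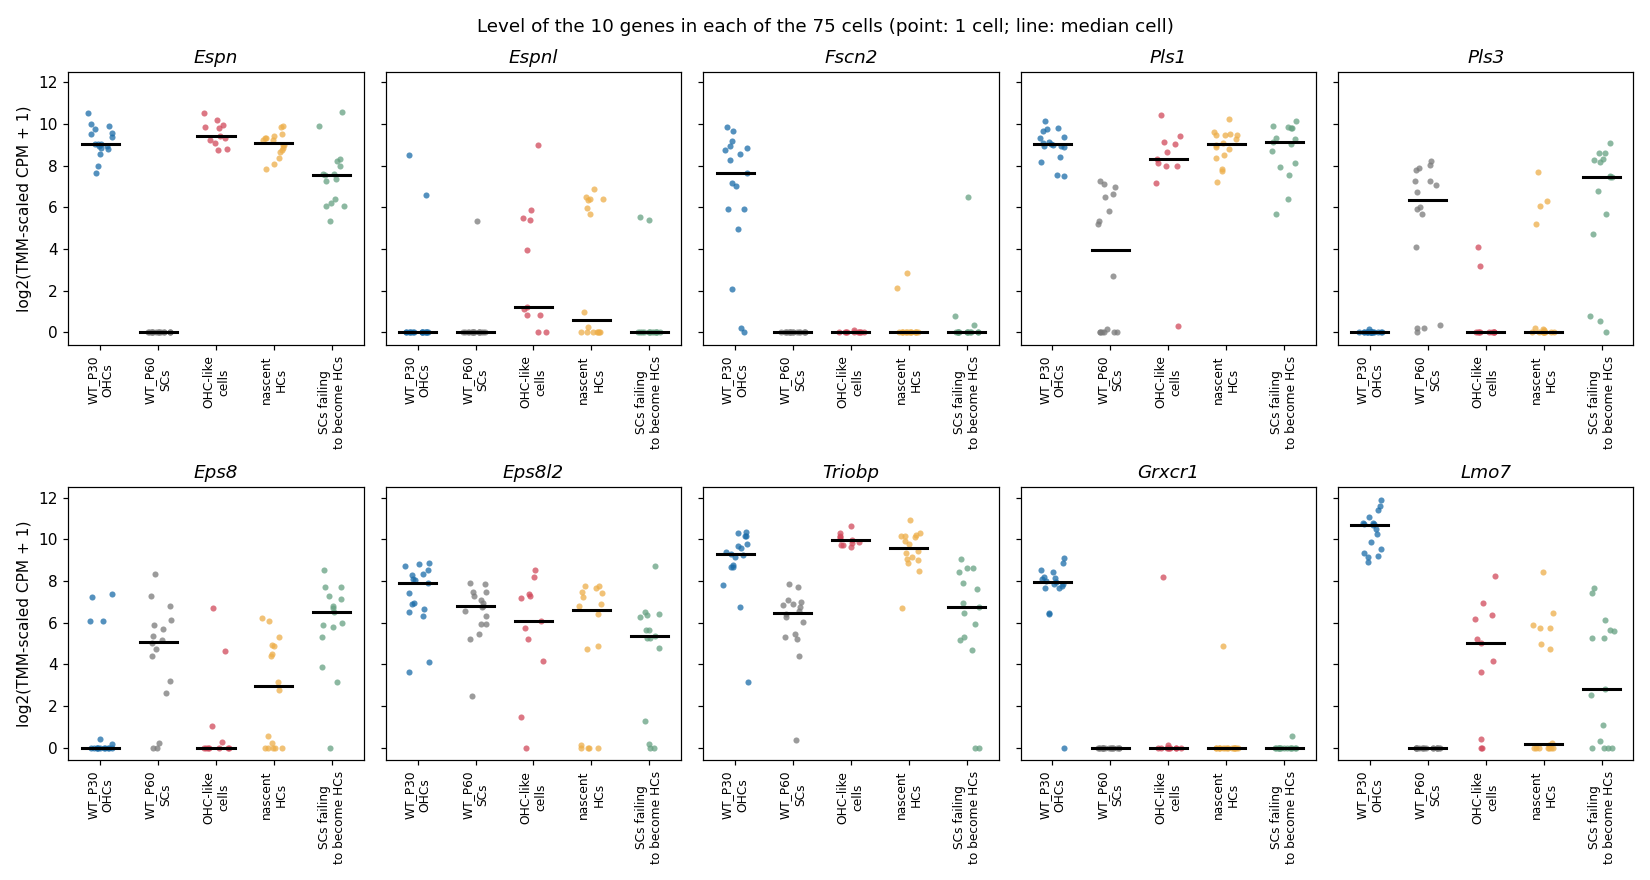
Level of each of the 10 genes in each cell, as log2(TMM-scaled CPM + 1) on the y axis and the 5 groups on the x axis; a point is 1 cell and a line is the median cell. For Espn, the 16 WT_P60 SCs sit at 0 and the cells of the other 4 groups lie above them, whereas for Grxcr1 only the WT_P30 OHCs form a cloud above 0.

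Because these genes divided in the induced cells, the 250 bases before the annotated start site are shown for 5 of them (RefSeq, GRCm38.p6, written 5′ to 3′ on the gene's strand, the most upstream start where RefSeq has several). Capitals mark the E-box CANNTG, the letters that basic helix-loop-helix factors such as Atoh1 recognize; the motif reads the same on both strands, and CAGCTG is 1 form of it.
Espn, chr4:152152390-152152639, minus strand: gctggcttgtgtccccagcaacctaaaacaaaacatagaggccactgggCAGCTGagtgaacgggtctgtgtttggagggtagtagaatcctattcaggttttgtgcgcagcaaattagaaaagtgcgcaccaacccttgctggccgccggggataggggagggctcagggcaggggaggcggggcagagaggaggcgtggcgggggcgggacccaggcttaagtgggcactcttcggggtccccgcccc
Triobp, chr15:78947474-78947723, plus strand: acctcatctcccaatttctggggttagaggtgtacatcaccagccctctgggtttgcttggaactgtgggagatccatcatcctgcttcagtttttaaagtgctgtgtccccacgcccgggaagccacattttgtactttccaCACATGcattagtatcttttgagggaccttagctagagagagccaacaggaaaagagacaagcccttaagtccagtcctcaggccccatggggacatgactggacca
Fscn2, chr11:120361284-120361533, plus strand: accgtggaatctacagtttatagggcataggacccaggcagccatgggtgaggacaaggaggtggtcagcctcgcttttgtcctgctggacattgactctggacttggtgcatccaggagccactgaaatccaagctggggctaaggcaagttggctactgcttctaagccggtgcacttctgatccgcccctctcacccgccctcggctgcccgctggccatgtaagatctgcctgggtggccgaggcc
Grxcr1, chr5:68031585-68031834, plus strand: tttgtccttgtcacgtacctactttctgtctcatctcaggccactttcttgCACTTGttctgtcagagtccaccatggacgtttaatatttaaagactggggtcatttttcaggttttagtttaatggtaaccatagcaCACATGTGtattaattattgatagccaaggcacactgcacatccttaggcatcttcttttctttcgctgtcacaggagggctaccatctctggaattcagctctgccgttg
Lmo7, chr14:101729678-101729927, plus strand: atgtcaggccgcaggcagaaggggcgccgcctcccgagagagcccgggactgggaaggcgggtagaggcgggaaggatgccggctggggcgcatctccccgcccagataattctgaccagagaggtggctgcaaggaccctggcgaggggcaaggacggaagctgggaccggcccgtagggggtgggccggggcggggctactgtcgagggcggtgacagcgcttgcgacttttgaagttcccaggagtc
The windows of Espn and Triobp each held 1 E-box, those of Fscn2 and Lmo7 held 0, and that of Grxcr1 held 3, of which 2 overlap. The same length before the Pls1 start, not shown, held 2, and those before the other starts of Espn held 0 and 3. The window before the other start of Triobp held 1 and that of Lmo7 held 0. The run of bases directly after the Espn start shown and after both Lmo7 starts was not found whole in a GENCODE transcript of the gene. For the starts shown of Triobp, Fscn2 and Grxcr1 it was found. The motif was in 66.2% of the 32851 RefSeq promoter windows of that length, and CAGCTG, which only the Espn window of the 5 shown held, was in 13.0%. A match of 6 letters is a description of the window and does not mark a binding site.

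Among the crosslinkers, Espn (espin; chr4:152120331-152152371, minus strand, GRCm38) gave the clearest contrast. It was absent from the counts of all 16 WT_P60 SCs and present in every cell that had received Atoh1 and Ikzf2. WT_P30 OHCs ran from 199 CPM through a median of 531 to 1474 CPM, with a mean of 633 ± 315 (n = 17), at least 1507-fold higher than the floor of 3 counts per WT_P60 SC. OHC-like cells ran from 434 CPM through 677 to 1455 CPM, with a mean of 800 ± 321 (n = 11). Nascent HCs ran from 225 CPM through 554 to 966 CPM, with a mean of 557 ± 209 (n = 16). These 3 ranges overlapped over most of their length, and 9 of 11 OHC-like cells and 8 of 16 nascent HCs lay at or above the WT_P30 OHC median. SCs failing to become HCs also held Espn, from 39.6 CPM through 186 to 1508 CPM, with a mean of 304 ± 402 (n = 15), although Myo7a, used to sort them, was detected in only 3 of those 15 cells. That mean leaned on SCs failing to become HCs cell 13, at 1508 CPM, and was 218 CPM without it.

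Pls1 (plastin-1, the fimbrin of the bundle; chr9:95752642-95845311, minus strand) was the crosslinker that differed least among the cells with Atoh1 and Ikzf2. Its mean was 566 ± 256 CPM (n = 17) for WT_P30 OHCs, 437 ± 373 (n = 11) for OHC-like cells, 545 ± 266 (n = 16) for nascent HCs and 562 ± 347 (n = 15) for SCs failing to become HCs. The 4 ranges overlapped, with medians of 531, 318, 528 and 564 CPM in that order. At or above the WT_P30 OHC median were 3 of 11 OHC-like cells and 8 of 16 nascent HCs. The OHC-like mean was 341 CPM without cell 1, at 1397 CPM. WT_P60 SCs held 46.3 ± 56.3 CPM (n = 16), with Pls1 detected in 9 of 16 cells and no cell above 155 CPM. Against them Pls1 was 12.2-fold higher in WT_P30 OHCs, 9.45-fold in OHC-like cells, 11.8-fold in nascent HCs and 12.1-fold in SCs failing to become HCs. For Pls1 the cells sorted as failing to convert thus differed from WT_P60 SCs by about the same fold as the WT_P30 OHCs did. OHC-like cell 4, with the fewest genes detected (3348) and the fewest counts of its group, was the 1 induced cell without Pls1.

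Pls3 (plastin-3, the paralog expressed in many tissues; chrX:75785654-75875182, minus strand) had the opposite pattern. Of 16 WT_P60 SCs, 12 held it, with a mean of 109 ± 102 CPM (n = 16). It was at 1 CPM or more in 0 of 17 WT_P30 OHCs, which allows a share of up to 19.5% (exact 95% interval). Over all WT_P30 OHCs 1 count was found, a rate 12707-fold below that of WT_P60 SCs with a counting interval of 2280 to 501923. OHC-like cells held it in 2 of 11 cells, at 2.20 ± 5.22 CPM (n = 11), and nascent HCs in 4 of 16 cells, at 24.3 ± 55.2 CPM (n = 16). SCs failing to become HCs held it in 12 of 15 cells, at 197 ± 170 CPM (n = 15), a range of 0 to 539 CPM that took in that of WT_P60 SCs. Both plastins were therefore present in cells that failed to convert, whereas of these 2 WT_P30 OHCs held Pls1. The OHC-like mean was 0.799 CPM without cell 10, and the nascent HC mean was 12.0 CPM without cell 7. The longest run of identical bases shared by annotated transcripts of Pls1 and Pls3 was 20.

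Fscn2 (fascin-2, a crosslinker shared with photoreceptors; chr11:120361534-120368168, plus strand) was a gene of WT_P30 OHCs. It was seen in 15 of those 17 cells and ran from 0 CPM through a median of 197 to 921 CPM, with a mean of 295 ± 288 (n = 17). WT_P60 SCs held 0 counts, and the 11 OHC-like cells together held 1. The rate in WT_P30 OHCs was 33814-fold that in OHC-like cells, with a counting interval of 6069 to 1335630. Nascent HCs had Fscn2 in 2 of 16 cells, none above 6.26 CPM, and SCs failing to become HCs had it in 1 of 15 cells, at 88.1 CPM. The ranges overlapped at the low end, where 2 WT_P30 OHCs were under 1 CPM. Its paralog Fscn1 was the reverse, at 0 counts in WT_P30 OHCs, 70.5 ± 45.8 CPM (n = 16) for WT_P60 SCs, 8.67 ± 16.2 (n = 11) for OHC-like cells and 4.72 ± 7.70 (n = 16) for nascent HCs. SCs failing to become HCs held Fscn1 in 9 of 15 cells, with a mean of 48.1 ± 83.4 CPM (n = 15), within the threshold of WT_P60 SCs.

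Espnl (espin-like, a paralog of espin; chr1:91322075-91348306, plus strand) was seldom found in wild-type cells of either kind. It was detected in 2 of 17 WT_P30 OHCs (11.8%, exact 95% interval 1.46% to 36.4%), in 7 of 11 OHC-like cells (63.6%, 30.8% to 89.1%) and in 7 of 16 nascent HCs (43.8%, 19.8% to 70.1%). The intervals overlapped, and they cover counting error only. Means were set by single cells: 27.2 ± 90.3 CPM (n = 17) for WT_P30 OHCs became 6.01 CPM without cell 13, and 60.2 ± 148 CPM (n = 11) for OHC-like cells became 16.1 CPM without cell 11. Nascent HCs were at 35.3 ± 43.3 CPM (n = 16) with a median of 0.561 CPM. WT_P60 SCs had Espnl in 1 of 16 cells and SCs failing to become HCs in 2 of 15.

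Neither of the 2 genes of the filament tip was past the threshold between WT_P30 OHCs and WT_P60 SCs on group means. On the median cell Eps8 was past the threshold and lower in WT_P30 OHCs, at a log2 fold of -5.08. It was also past the threshold on the mean of log2(CPM + 1). Eps8 (a capping and bundling protein at the tips; chr6:137477245-137654876, minus strand) was present in 4 of 17 WT_P30 OHCs, with 26.4 ± 54.4 CPM (n = 17), and in 13 of 16 WT_P60 SCs, with 57.9 ± 81.5 CPM (n = 16). The gene was present in 3 of the 11 OHC-like cells, at 11.7 ± 31.1 CPM (n = 11), in 9 of 16 nascent HCs, at 18.2 ± 23.9 CPM (n = 16), and in 14 of the 15 SCs failing to become HCs, with 108 ± 98.5 CPM (n = 15). All 5 ranges began at 0 CPM and overlapped. The OHC-like mean was 2.54 CPM without cell 1, at 103 CPM. The shares placed Eps8 beside Pls3, as a gene found more often in supporting cells and in cells that failed to convert than in WT_P30 OHCs or OHC-like cells. Eps8 was 4.97-fold lower in the OHC-like cells than in the WT_P60 SCs, a call that was lost without WT_P60 SC cell 1 (7 in place of 8 genes past the threshold), while without OHC-like cell 1 the log2 fold went from -2.22 to -4.06.

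Eps8l2 (a relative of Eps8 at the tips of shorter stereocilia; chr7:141338880-141363020, plus strand) was the most evenly spread of the 10 genes. It was detected in 17 of 17 WT_P30 OHCs, 16 of 16 WT_P60 SCs, 10 of 11 OHC-like cells, 11 of 16 nascent HCs and 12 of the 15 SCs failing to become HCs. Means were 224 ± 149 CPM (n = 17), 114 ± 67.6 (n = 16), 118 ± 122 (n = 11), 93.7 ± 86.3 (n = 16) and 66.1 ± 104 (n = 15) in that order, and no comparison passed the threshold. The last of these means was 40.6 CPM without SCs failing to become HCs cell 3. The closest relatives gave little signal in OHCs: Eps8l1 was at 62.9 ± 53.0 CPM (n = 16) for WT_P60 SCs and 1.62 ± 6.67 (n = 17) for WT_P30 OHCs, and Eps8l3 was listed at 0 counts in every cell. An annotated gene on the opposite strand, B230206H07Rik, covers 32.2% of the Eps8l2 exon length, and since the strand setting of the counting was not given, reads of the 2 cannot be told apart; it had 26 counts over all cells against 77400 for Eps8l2.

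Triobp, which makes the rootlets (chr15:78947724-79005869, plus strand), separated OHC-like cells from the cells that failed to convert. OHC-like cells ran from 789 CPM through a median of 1008 to 1578 CPM, with a mean of 1042 ± 231 (n = 11), the smallest SD relative to its mean of any gene here in that group. Nascent HCs ran from 104 CPM through 782 to 1925 CPM, with a mean of 839 ± 447 (n = 16), and WT_P30 OHCs from 7.76 CPM through 635 to 1290 CPM, with a mean of 664 ± 387 (n = 17). All 11 OHC-like cells and 10 of 16 nascent HCs were at or above the WT_P30 OHC median. SCs failing to become HCs ran only from 0 to 528 CPM, with a mean of 170 ± 169 (n = 15), and WT_P60 SCs from 0.267 to 231 CPM, with a mean of 93.3 ± 63.2 (n = 16). The lowest OHC-like cell thus lay above the highest cell of both supporting cell groups, and against the cells that failed to convert the mean was 6.12-fold higher. A separation of that kind from SCs failing to become HCs was shown by 8 of 10478 genes tested (0.0764%), in groups that were sorted on other genes of the same cells. Triobp has rootlet isoforms and a broadly expressed short isoform, which a count per gene does not separate, and an antisense gene, Gm10865 (3529 counts over all cells against 397258), covers 0.756% of its exon length.

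Lmo7 (a LIM-domain protein of the cuticular plate and cell junctions; chr14:101729957-101934710, plus strand) separated WT_P30 OHCs from every other group. WT_P30 OHCs ran from 481 CPM through a median of 1641 to 3842 CPM, with a mean of 1584 ± 949 (n = 17), and WT_P60 SCs held 0 counts, so that it was at least 3773-fold higher in the OHCs. OHC-like cells ran from 0 through 31.4 to 300 CPM, with a mean of 61.0 ± 88.5 (n = 11), and nascent HCs from 0 through 0.127 to 338 CPM, with a mean of 40.4 ± 84.3 (n = 16). Every WT_P30 OHC was above every OHC-like cell and every nascent HC, and the means were 26.0-fold and 39.2-fold lower. Without OHC-like cell 11 and nascent HC cell 2, the highest of each group, those means were 37.1 and 20.5 CPM. SCs failing to become HCs lay in the same range, at 41.3 ± 62.7 CPM (n = 15) with a highest cell of 201 CPM. The presence of Lmo7 in 8 of 11 OHC-like cells, 7 of 16 nascent HCs and 9 of 15 cells that failed to convert, against 0 of 16 WT_P60 SCs (up to 20.6%, exact 95% interval), was shared by all 3 induced groups.

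**Figure D2:**
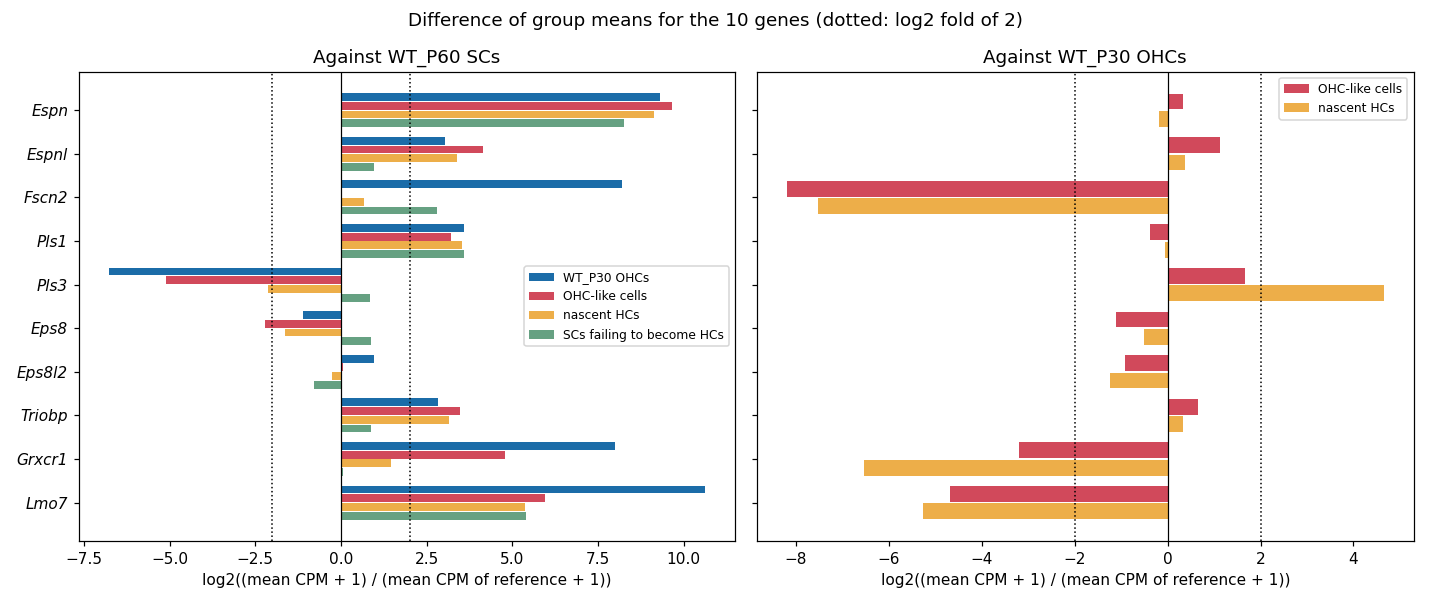
Difference of group means for the 10 genes, as log2 of the ratio of mean CPM with 1 CPM added to each, on the x axis; the left panel takes WT_P60 SCs as reference for 4 groups and the right panel WT_P30 OHCs for 2 groups, each bar is 1 gene in 1 group and dotted lines mark a log2 fold of 2. In the right panel Fscn2, Grxcr1 and Lmo7 extend past -2 in both groups while Espn, Pls1 and Triobp stay within 1 of 0. Bars against a group at 0 counts depend on the added 1 CPM.

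Grxcr1 (a glutaredoxin-like protein needed for the growth of stereocilia; chr5:68031835-68166398, plus strand) followed Fscn2. It was detected in 16 of 17 WT_P30 OHCs, from 0 CPM through a median of 244 to 557 CPM, with a mean of 254 ± 134 (n = 17), and at 0 counts in WT_P60 SCs. It was found in 1 of 11 OHC-like cells, at 295 CPM, in 1 of 16 nascent HCs, at 28.0 CPM, and in 0 of 15 SCs failing to become HCs (up to 21.8%, exact 95% interval). The OHC-like mean of 26.8 ± 88.8 CPM (n = 11) rested on cell 11 alone and was 0.0108 CPM without it. Without that cell the difference from nascent HCs changed direction, from a log2 fold of 3.34 to -1.45, as did that from SCs failing to become HCs, from 4.75 to -0.028. Its paralog Grxcr2 showed the same division, at 990 ± 332 CPM (n = 17) for WT_P30 OHCs and 0 counts in WT_P60 SCs, with 1 of 11 OHC-like cells and 1 of 16 nascent HCs above 1 CPM.

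Those cells were the same for both paralogs. OHC-like cell 11 and nascent HC cell 2, both of library series E and singled out after their values were seen, held several genes that the other induced hair cells mostly lacked. They were 1 of the 2 OHC-like cells and 1 of the 4 nascent HCs of that series. The series of each cell is an assignment that the sample titles do not state. OHC-like cell 11 had 8 of the 10 genes detected, against 4 to 7 in the other OHC-like cells, and was the highest of its group for Espnl (500 CPM), Eps8l2 (373 CPM), Grxcr1 (295 CPM) and Lmo7 (300 CPM). Nascent HC cell 2 had 9 of the 10 detected, against 3 to 8 in the others, and was the highest of its group for Espnl (116 CPM), Fscn2 (6.26 CPM), Grxcr1 (28.0 CPM) and Lmo7 (338 CPM), and the lowest for Pls1 (146 CPM). Of the other bundle genes, Grxcr2 was at 282 CPM in OHC-like cell 11 and 327 CPM in nascent HC cell 2, with no other OHC-like cell above 0.408 CPM and no other nascent HC above 0.252 CPM. Ptprq, a shaft connector, was at 153 and 271 CPM in the same cells, with the others at most at 0.163 and 0.393 CPM. Myo15, the motor that carries the tip complex, was at 120 and 268 CPM, with the others at most at 7.64 and 0.454 CPM. Elmod1 and Xirp2 were also highest in these cells, and Gpsm2 was highest in OHC-like cell 11 but not in nascent HC cell 2.

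Of 4 OHC markers, Slc26a5 and Ocm stayed under the WT_P30 OHC levels in these cells, while Myo7a and Ikzf2 lay within the WT_P30 OHC range. Myo7a was at 499 CPM in OHC-like cell 11 and 254 CPM in nascent HC cell 2, against 205 to 1006 CPM in WT_P30 OHCs. Ikzf2, also a transgene in these cells, was at 107 and 365 CPM, against 34.6 to 543 CPM. Slc26a5 was at 174 CPM in OHC-like cell 11 and 14.7 CPM in nascent HC cell 2, the highest of each group but far under the lowest WT_P30 OHC (780 CPM). Ocm, the OHC calcium buffer oncomodulin, was at 3912 and 32.0 CPM in these cells, against at least 9425 CPM in every WT_P30 OHC. Sox2, a supporting cell factor at 0 in WT_P30 OHCs, was at 49.1 and 91.0 CPM, the highest of each group. Atoh1 was at 3668 and 4225 CPM, within the range of the other cells of each group, whereas no WT_P30 OHC was above 20.9 CPM. Total counts were 9209094 in OHC-like cell 11 and 7443598 in nascent HC cell 2, the latter the lowest of its group. Whether depth or library series had a part in the pattern was not tested.

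**Figure D3:**
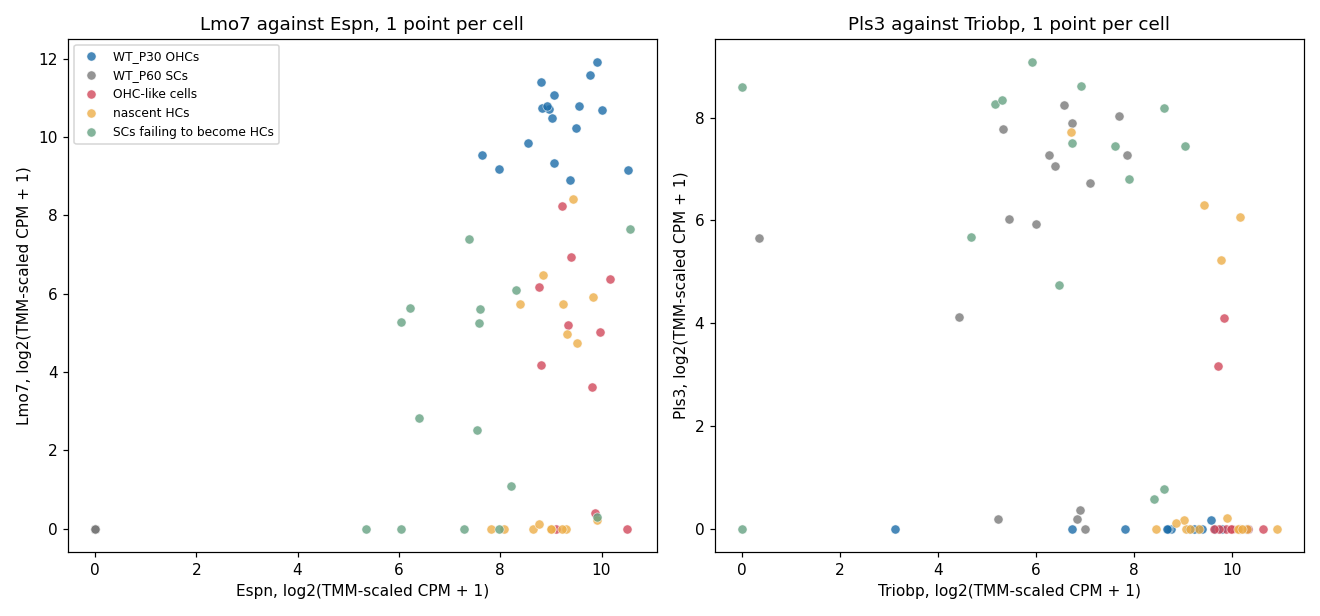
Paired levels in each cell, as log2(TMM-scaled CPM + 1) on both axes and colored by group: Lmo7 against Espn on the left and Pls3 against Triobp on the right, with 1 point per cell. WT_P30 OHCs and the induced hair cells share the Espn range but every WT_P30 OHC lies above every induced cell for Lmo7, and 9 of the 11 OHC-like cells are under 1 CPM for Pls3.

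Against WT_P60 SCs, 6 of the 10 genes were higher in OHC-like cells (Espn, Espnl, Pls1, Triobp, Grxcr1 and Lmo7), where 18.2% of 10327 genes tested were higher, and 2 were lower (Pls3 and Eps8), where 11.0% were lower and 29.2% differed in either direction. Espn and Triobp were higher in every OHC-like cell than in every WT_P60 SC, as were 0.92% of genes, and 0.978% were lower in every cell. The count of higher genes was 5 without OHC-like cell 11, which carried Grxcr1. In nascent HCs 5 were higher (the same genes without Grxcr1), where 17.1% of 10264 genes were higher, and 1 was lower (Pls3), where 9.73% were lower and 26.9% differed in either direction. Espn was higher in every nascent HC, as were 0.643% of genes, and 0.955% were lower in every cell. The Pls3 call in nascent HCs was lost without WT_P60 SC cell 1 or cell 10. In SCs failing to become HCs 3 were higher (Espn, Pls1 and Lmo7), where 15.7% of 10162 genes were higher, and 0 were lower, where 7.56% were lower and 23.3% differed in either direction. Espn was higher in every cell of that group than in every WT_P60 SC, as were 5 genes in all (0.0492%), and 0.512% were lower in every cell. The level filter was passed by 9, 8 and 7 of the 10 genes in these comparisons. On the median cell Lmo7 did not pass in nascent HCs or SCs failing to become HCs, nor Espnl in OHC-like cells or nascent HCs. Of the genes past the level filter, 6 of 9, 5 of 8 and 3 of 7 were therefore higher, beside 18.2%, 17.1% and 15.7% of all genes tested. The last share was the nearest to its background. The median log2 folds of the 10 genes were 3.34, 2.31 and 0.92, beside 0.34, 0.33 and 0.27 over all genes tested, and the nascent HC median was 2.61 with the genes at 0 counts in WT_P60 SCs set to their bound. These comparisons share the WT_P60 SCs, so their counts are not independent.

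Against WT_P30 OHCs, 3 genes were lower in OHC-like cells (Fscn2, Grxcr1 and Lmo7), where 9.87% of 10247 genes tested were lower, and 0 were higher, where 22.4% were higher and 32.3% differed in either direction. Lmo7 was lower in every OHC-like cell, as were 0.342% of genes, and 0.79% were higher in every cell. In nascent HCs the same 3 were lower, where 9.7% of 10308 genes were lower, and Pls3 was higher, where 22.6% were higher and 32.3% differed in either direction. Lmo7 was lower in every nascent HC, as were 0.495% of genes, and 0.737% were higher in every cell. The level filter was passed by 9 and 10 of the 10 genes. Without WT_P30 OHC cell 13 Espnl was past the threshold too, with 4 and 5 genes in all, and without OHC-like cell 1 Eps8 was, with 4 genes in OHC-like cells. The higher Pls3 mean rested on 4 of 16 nascent HCs, and the median nascent HC was at 0 CPM. Espn, Pls1 and Triobp stayed within the threshold in both comparisons, with means between 77.2% and 157% of the WT_P30 OHC mean. The median log2 folds of the 10 genes were -0.65 in OHC-like cells and -0.35 in nascent HCs. Those of all genes tested were 0.50 and 0.48, so the typical gene was higher in the induced hair cells than in WT_P30 OHCs.

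Between OHC-like cells and nascent HCs the 10 genes differed little. Grxcr1 was higher, where 3.24% of 9924 genes tested were higher, through cell 11 alone, and Pls3 was lower, where 3.88% were lower, through 4 nascent HCs. In either direction 7.12% of genes differed, and 0.0101% (1 gene) were higher in every OHC-like cell, with none of the 10 among them. Eps8 was also past the threshold without OHC-like cell 1. Espn was 1.44-fold and Triobp 1.24-fold higher in OHC-like cells, with overlapping ranges. Against SCs failing to become HCs, OHC-like cells were higher for Espnl, Triobp and Grxcr1, where 11.1% of 10478 genes were higher, and lower for Pls3 and Eps8, where 11.5% were lower and 22.6% differed in either direction. The level filter was passed by 9 of the 10 genes in both comparisons. The Espnl and Grxcr1 calls were both lost without cell 11 (3 in place of 5 genes past the threshold). Only library series A and E held both of these groups. Series A had 1 OHC-like cell against 4 cells that failed to convert, and series E had 2 against 1. Within these 2 series the number past the threshold was also 5, but OHC-like cell 11 was among the few cells used. There 34.5% of 10233 genes tested differed in either direction, beside 22.6% with all cells of both groups. Series B and D, with 5 and 3 OHC-like cells, had none that failed to convert. Series C had 10 such cells and no OHC-like cell, so cells of B, C and D could not be compared within a series.

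The number of the 10 genes detected per cell had a median of 7 in WT_P30 OHCs, 4 in WT_P60 SCs, 6 in OHC-like cells, 5 in nascent HCs and 6 in SCs failing to become HCs. By this count the cells that failed to convert, with a range of 3 to 7, were not below the induced hair cells, with ranges of 4 to 8 and 3 to 9, and 12 and 14 of the 15 had Pls3 and Eps8 detected. The summed level separated the groups more: the median was 4200 CPM in WT_P30 OHCs, 2305 in OHC-like cells, 2096 in nascent HCs, 1492 in SCs failing to become HCs and 389 in WT_P60 SCs, and the ranges of neighbouring groups overlapped. The highest WT_P60 SC, at 894 CPM, lay below the lowest nascent HC, at 1306 CPM. Lmo7 weighed heavily in the sum: it had a mean of 1584 CPM of a mean sum of 4273 CPM in WT_P30 OHCs. In OHC-like cells it had 61.0 of 2560 CPM.

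**Figure D4:**
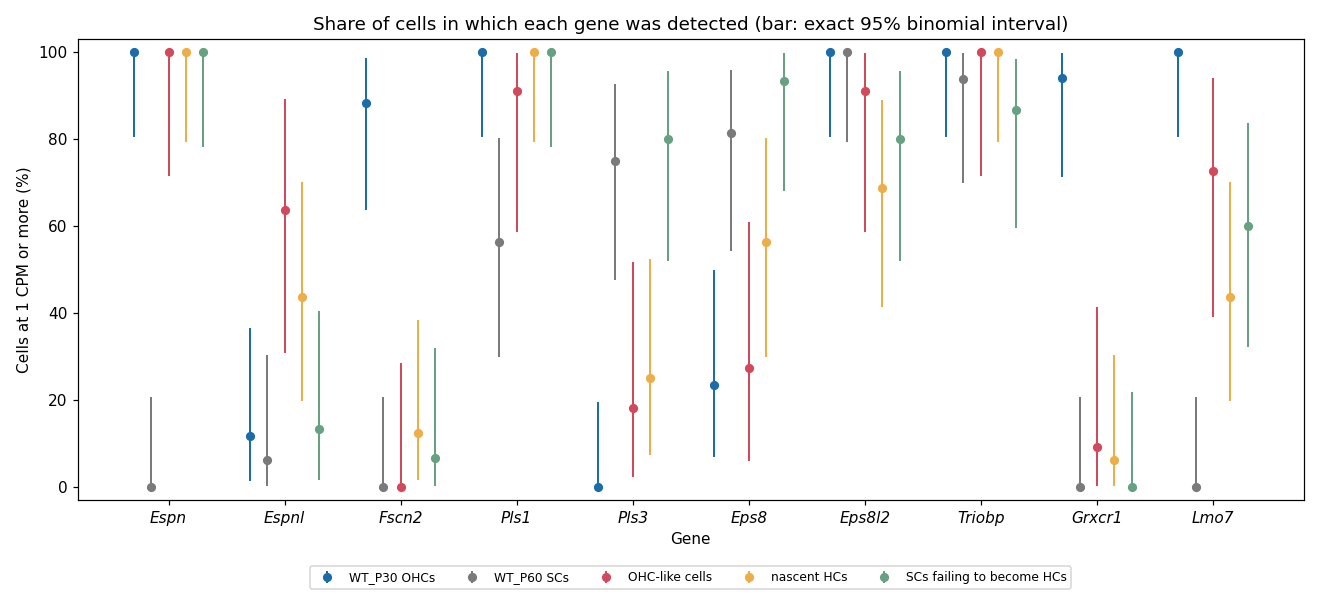
Share of cells in each group with 1 CPM or more of each of the 10 genes, in percent on the y axis, with exact 95% binomial intervals as bars. Pls3 and Eps8 are highest in SCs failing to become HCs and next in WT_P60 SCs, while Fscn2 and Grxcr1 reach 88.2% and 94.1% in WT_P30 OHCs and at most 12.5% elsewhere.

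Levels of different genes were compared per kilobase of annotated exon. In WT_P30 OHCs the order of mean CPM per kilobase began with Grxcr1 (237 ± 125), Pls1 (146 ± 65.9), Fscn2 (140 ± 137) and Lmo7 (133 ± 79.4), and went on with Espn (76.5 ± 38.1), Triobp (54.0 ± 31.4) and Eps8l2 (41.6 ± 27.7), each ± SD over 17 cells. Neighbours in this order differed by less than the larger of their SDs. Espnl (4.99), Eps8 (2.14) and Pls3 (0.00179) followed far below. In OHC-like cells Pls1 (112 ± 95.9), Espn (96.7 ± 38.8) and Triobp (84.7 ± 18.8), each ± SD over 11 cells, led, and Fscn2 came last. In WT_P60 SCs Pls3 (25.8 ± 24.1) and Eps8l2 (21.2 ± 12.6), each ± SD over 16 cells, led and did not differ beyond their SD.

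Within the 27 OHC-like cells and nascent HCs, Espn and Triobp levels were positively related across cells (Pearson r = 0.51, Spearman rho = 0.47 on log2(CPM + 1), r = 0.50 without the 2 cells farthest from the median of Espn). The cells share library series and fall into 2 groups, so this is a description. Espn and Pls1 gave r = -0.42, which became 0.05 without the 2 farthest cells. Over all 75 cells, the 5 genes whose Spearman correlation with the mean standardized level of the 10 genes was highest, of 9627 genes ranked, were Pkig (0.79), Selenow (0.77), Smpx (0.75), Atp5md (0.73) and Art1 (0.72), a relation that group, depth and library series share. Smpx, a small muscle-type protein also found in hair cells, ran from a mean of 1052 ± 493 CPM (n = 17) for WT_P30 OHCs through 227 ± 193 (n = 11) for OHC-like cells and 207 ± 165 (n = 16) for nascent HCs to 6.37 ± 13.9 (n = 16) for WT_P60 SCs.

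A list of 36 further genes of the bundle and plate was described the same way. In WT_P30 OHCs against WT_P60 SCs 32 of them passed the level filter, 11 were higher and 10 lower, with a median log2 fold of 0.09, beside 15.3% higher and 20.7% lower over all genes tested. The genes furthest above were Grxcr2, Myo15, Elmod1 (440 ± 276 CPM, n = 17, a regulator of small GTPases in the plate), Xirp2 (241 ± 235, an actin-binding repeat protein), Ptprq (226 ± 196) and Gpsm2 (155 ± 179, of the tip complex), each at 0 to 1.72 CPM on average in WT_P60 SCs. The genes furthest below were Gsn, the severing protein gelsolin, at 0 counts in WT_P30 OHCs and 532 ± 767 CPM (n = 16) for WT_P60 SCs, then Fscn1, Eps8l1, Actb, Diaph1 and Ezr. Cytoplasmic beta-actin, Actb, was at 86.0 ± 81.9 CPM (n = 17) for WT_P30 OHCs and 1487 ± 748 (n = 16) for WT_P60 SCs, with no overlap.

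Induced hair cells were nearer to WT_P60 SCs for that actin, at 982 ± 497 CPM (n = 11) for OHC-like cells and 1253 ± 556 (n = 16) for nascent HCs. Against WT_P60 SCs, 12 of the 36 genes were higher and 5 lower in OHC-like cells, beside 18.2% and 11.0% of all genes tested. In nascent HCs 9 were higher and 4 lower, beside 17.1% and 9.73%, and in SCs failing to become HCs 2 were higher and 3 lower, beside 15.7% and 7.56%. Against WT_P30 OHCs, 9 were higher and 9 lower in OHC-like cells, beside 22.4% and 9.87%, and 8 were higher and 11 lower in nascent HCs, beside 22.6% and 9.7%. Several of these counts were near the share over all genes. The third plastin, Lcp1, departed from both wild-type groups: it was at 389 ± 280 CPM (n = 17) for WT_P30 OHCs and 1496 ± 520 (n = 16) for WT_P60 SCs but at 17.9 ± 53.3 (n = 11) for OHC-like cells, 4.49 ± 9.96 (n = 16) for nascent HCs and 46.3 ± 67.7 (n = 15) for SCs failing to become HCs. Gsn was at 5991 ± 13490 CPM (n = 15) for SCs failing to become HCs, where the highest cell reached 47433 CPM and the median cell 753 CPM.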

How the data were processed

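The deposited counts were whole numbers of reads per gene for 75 single cells. The authors amplified full-length cDNA of hand-picked cells (Smart-Seq HT), trimmed reads with Trimmomatic 0.39, aligned them to GRCm38 (mm10) with HISAT2 2.1.0 and counted them with HTSeq 0.10.0 (FastQC 0.11.9 and StringTie 1.3.5 are also named; no StringTie values were used here). The annotation release and strand setting are not given in the sources used here. There are no molecular identifiers, so reads are not molecules and intervals cover counting error only.

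A row that names a vector element rather than a gene (0.0254% of counts) was left out. CPM were scaled by TMM factors from edgeR 4.0.16 (R 4.3.3) on 11443 genes with at least 10 counts by its filter. Groups came from the labels. The 8 group comparisons took the log2 ratio of mean CPM (1 CPM added), past 2 in either direction, among genes with a mean of at least 10 CPM. The script was checked on simulated data. Each group counted as 1 sample, so no count test was run. A group with 0 counts was replaced by a floor of 3 counts per cell, and 1 to 3 counts gave a ratio with an exact counting interval of 95%. Exon lengths and coordinates were taken from GENCODE M21 (GRCm38) and promoters from a table of RefSeq windows (GRCm38.p6) in which 9 of the 10 genes were matched. The 10 genes and the lists were chosen with earlier results of these data known. Named beside the 10 genes were, of 36 listed bundle genes in the table, at most 6 with the largest log2 fold in each direction in WT_P30 OHCs against WT_P60 SCs, 5 paralogs, and the 5 genes most like the mean of the 10. Replicate numbers only name cells. Alternatives were another scaling, filter, added CPM, centre, threshold, depth and set of cells.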

Additional observations from a re-analysis of the deposited data

How the results depend on the processing

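No paired analysis was possible because the results come from no test and the shared replicate numbers only name cells. Scaling by total counts or by DESeq2 size factors (DESeq2 1.42.0) moved the median log2 fold of all genes by -0.24 to 0.10 and by -0.21 to 0.0085 and changed no call among the 10 genes. Nor did 0.1 CPM added, thinning every cell to 4264780 counts, or leaving out the 3 induced cells under 5000 genes detected. The Fscn2, Grxcr1 and Lmo7 calls against WT_P30 OHCs held under every alternative run.

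With a log2 threshold of 1, 5 in place of 3 genes passed in OHC-like cells against WT_P30 OHCs. For OHC-like cells against nascent HCs 2 genes passed, but 0 with 10 CPM added, 0 with the mean of log2(CPM + 1) and 1 with the median cell (Lmo7, with both Grxcr1 and Pls3 lost); leaving out 1 cell gave 1 to 3. Against SCs failing to become HCs, leaving out 1 cell gave 3 to 5. The log2 fold of Grxcr1 ran from -1.45 to 4.80 against nascent HCs and from -0.028 to 4.89 against SCs failing to become HCs, the lowest without OHC-like cell 11. All other counts of the 10 genes stayed within 1.5 times their value, though not always through the same genes. In WT_P30 OHCs against WT_P60 SCs 8 genes also passed with the median cell, but there Espnl was lost and Eps8 was gained. With the median cell 63.3% of 5902 genes tested passed, beside 36.0% of 10023 on group means, so the 8 genes stood out less.

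Over all genes the calls depended more on the settings. In WT_P30 OHCs against WT_P60 SCs 1536 genes were higher and 2077 lower, but 797 and 2938 with the median cell and 654 and 2196 with the mean of log2(CPM + 1). In OHC-like cells against WT_P30 OHCs 2300 and 1011 became 3969 and 453 with the median cell and 3033 and 386 with the mean of log2, and in nascent HCs 2327 and 1000 became 4105 and 475, and 3284 and 424. In SCs failing to become HCs against WT_P60 SCs 1596 and 768 became 1216 and 1038, and 710 and 738. In OHC-like cells against those cells 1163 and 1210 became 1844 and 681, and 1253 and 397. The share of genes called, 7.12% to 36.0% over the 8 comparisons, was 1.1% to 16.6% with 10 CPM added, 22.9% to 58.8% with a threshold of 1 and 2.92% to 10% with no filter on low levels, which tests more genes. It was 14.8% to 65.1% with the median cell and 4.49% to 58.6% with the mean of log2(CPM + 1), which both test fewer genes. A gene seen in 0 of 11 cells allows a share of up to 28.5%.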
